A study of Mus musculus with 4 samples.

Results

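The Polycomb repressor genes described here were 9 genes: Ezh1, Ezh2, Eed, Suz12, Bmi1, Cbx2, Cbx6, Cbx7 and Cbx8. They were chosen by name, and every accessible region that shared at least 1 base with the RefSeq bounds of a member extended by 50 kb on either side was taken. This gave 47 of the 74777 regions of the series. The assay was ATAC-seq, which uses the Tn5 transposase to cut and tag open DNA, applied to hair follicle stem cells from the back skin of female mice at postnatal day 30. The cells were sorted by FACS as H2BGFP(+), Sca-1(-), CD34(+) and CD49f(+). Of the 2 genotypes, the knockout was K14-H2BGFP, K14Cre, Foxc1 fl/fl, in which the keratin 14 promoter drives Cre and so deletes the forkhead factor gene Foxc1 in keratin 14-expressing epithelium. The control was K14-H2BGFP, Foxc1 fl/fl and carried the same floxed alleles and reporter without Cre. Each genotype had 1 library sequenced in 2 runs, and the number of animals behind it is not stated in the labels.

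All 4 runs share a single list of regions, which gives a chromosome, a start and an end on mm10 for each. No value belongs to a genotype, so knockout and control were not compared, and the values below have no replicate error and no test. The read depth behind a region is unknown, and a gene start without a region is therefore not shown to be closed. The width of a region is the one property that could be measured. As a check of the label, 11 of 11 hair follicle stem cell marker genes (among them Cd34, Itga6, Krt14, Krt5, Sox9, Lhx2 and Lgr5) had a region within 1 kb of a gene bound. Among 11 markers of other states or cell types the count was 3, namely Pmel and Dct of melanocytes and Col1a1 of fibroblasts. The gate-negative marker Ly6a, which encodes Sca-1, had none, and the part of melanocytes or fibroblasts in the list was not tested. Of all 21887 protein-coding genes, 57.6% had such a region. By the start windows defined further on, the counts were 5 of 6 and 1 of 5, beside 55.0% of protein-coding genes. Krt14 had no region there, the nearest being 1191 bp from its start.

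Polycomb proteins act in a pair of complexes that keep genes silent. In PRC2, EZH1 or EZH2 is the histone methyltransferase that marks lysine K27 of histone H3, EED binds the finished mark and stimulates the enzyme, and SUZ12 is the scaffold. In PRC1, a RING E3 ligase places ubiquitin on histone H2A, and BMI1 is a partner that stimulates it. In the forms of PRC1 that hold a CBX protein, its chromodomain docks the complex on the PRC2 mark. In mouse skin epithelium, PRC2 holds back differentiation genes and the senescence locus Cdkn2a, and loss of both Ezh1 and Ezh2 impairs hair follicle growth.

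The members differed at their start sites. All 4 PRC2 genes had a region over the annotated start, and among the 4 PRC1 genes with a listed start Cbx8 had a region there and Bmi1, Cbx6 and Cbx7 did not. Of all protein-coding genes with a listed start, 55.0% had one. Among the other genes of these complexes, given further on, 13 of 15 PRC1 genes and 7 of 9 PRC2 genes had one. With 4 genes on each side, no difference between the complexes can be read from the members. RefSeq start windows, each running from 250 bases before to 50 bases after a start, were matched for 8 members, while Cbx2 was described by its gene bounds. Windows of 3 genes with a region and of the 3 without are printed so that their letters can be compared. Whether the letters bear on the presence of a region was not tested. They are from GRCm38.p6, 5′ to 3′ on the strand of the gene, and capitals mark matches to any of 14 short motifs named further on. The windows lie at chr6:47594981-47595280 (Ezh2, minus strand), chr7:89980927-89981226 (Eed, minus), chr11:79992856-79993155 (Suz12, plus), chr2:18676768-18677067 (Bmi1, plus), chr15:79834284-79834583 (Cbx6, minus) and chr15:79932597-79932896 (Cbx7, minus). The first 3 were covered by a region and the last 3 were not.
Ezh2: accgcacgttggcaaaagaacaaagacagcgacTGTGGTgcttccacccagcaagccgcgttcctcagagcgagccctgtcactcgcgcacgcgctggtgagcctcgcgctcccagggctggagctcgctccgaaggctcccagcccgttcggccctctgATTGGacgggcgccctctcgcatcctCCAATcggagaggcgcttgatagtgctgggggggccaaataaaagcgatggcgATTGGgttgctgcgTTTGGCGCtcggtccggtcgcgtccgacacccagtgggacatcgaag
Eed: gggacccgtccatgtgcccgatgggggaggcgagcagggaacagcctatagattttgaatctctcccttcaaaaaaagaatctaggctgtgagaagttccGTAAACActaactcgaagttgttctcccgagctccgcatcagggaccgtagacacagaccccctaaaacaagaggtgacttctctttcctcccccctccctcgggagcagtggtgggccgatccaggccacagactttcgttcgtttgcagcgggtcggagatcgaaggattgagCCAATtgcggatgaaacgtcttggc
Suz12: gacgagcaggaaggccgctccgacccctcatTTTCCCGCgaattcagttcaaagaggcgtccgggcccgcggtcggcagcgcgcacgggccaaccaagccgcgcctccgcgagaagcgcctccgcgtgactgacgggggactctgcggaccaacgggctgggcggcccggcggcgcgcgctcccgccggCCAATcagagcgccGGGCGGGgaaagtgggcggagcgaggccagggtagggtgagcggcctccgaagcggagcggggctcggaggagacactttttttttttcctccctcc
Bmi1: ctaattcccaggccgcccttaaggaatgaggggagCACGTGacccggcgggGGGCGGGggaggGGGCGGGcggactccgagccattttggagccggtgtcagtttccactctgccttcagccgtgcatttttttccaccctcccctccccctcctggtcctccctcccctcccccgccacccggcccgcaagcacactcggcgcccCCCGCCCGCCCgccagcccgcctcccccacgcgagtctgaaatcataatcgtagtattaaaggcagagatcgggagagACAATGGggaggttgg
Cbx6: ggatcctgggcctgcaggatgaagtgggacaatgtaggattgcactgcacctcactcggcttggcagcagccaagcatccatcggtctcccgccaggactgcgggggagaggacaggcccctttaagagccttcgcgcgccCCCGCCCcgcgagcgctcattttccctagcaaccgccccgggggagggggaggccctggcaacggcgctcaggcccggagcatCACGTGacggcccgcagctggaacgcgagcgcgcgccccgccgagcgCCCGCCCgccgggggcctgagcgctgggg
Cbx7: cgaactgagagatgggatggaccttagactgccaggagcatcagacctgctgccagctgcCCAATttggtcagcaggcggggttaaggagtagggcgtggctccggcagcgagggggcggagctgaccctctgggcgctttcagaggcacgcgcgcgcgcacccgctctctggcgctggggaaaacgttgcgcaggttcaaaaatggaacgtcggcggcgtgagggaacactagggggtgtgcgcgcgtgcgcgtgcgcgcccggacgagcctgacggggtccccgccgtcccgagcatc

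Eed, the reader subunit of PRC2, had the widest region of all 9 windows. It spanned 2360 bp on chromosome 7 from 89979584 to 89981943 and reached 967 bp upstream and 1392 bp downstream of the start. Ezh2, the methyltransferase gene most active in dividing cells, had a region of 1861 bp on chromosome 6 from 47594048 to 47595908, reaching 878 bp upstream and 982 bp downstream. Among all protein-coding start windows with a region, each taken with its widest one, these widths stood at percentiles 88.5 and 75.4. The median over these windows was 1372 bp and the quartiles were 986 and 1854 bp. The lncRNA gene F830010H11Rik starts under the same Ezh2 region, so the region cannot be given to either start alone.

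The other members with a start region had narrower ones. Cbx8, which encodes a chromodomain subunit of PRC1, had 1226 bp on chromosome 11 from 119040725 to 119041950 (percentile 40.1), and Suz12 had 860 bp from 79992528 to 79993387 on the same chromosome (percentile 17.4). Ezh1, the paralogue of Ezh2 that is known from resting and differentiated cells, had 468 bp on chromosome 11 from 101226347 to 101226814, at percentile 3.78 and thus among the narrowest start regions of the list. The Ezh1 region was also the one start region lost when only regions of at least the median width of the list, 587 bp, were kept. At Ezh1, Suz12 and Cbx8 the region extended further upstream than downstream, by 351 against 116 bp, 578 against 281 bp and 1037 against 188 bp. Over the 10899 listed starts covered by a region, 45.5% had it further upstream, with medians of 637 bp upstream and 682 bp downstream.

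**Figure D1:**
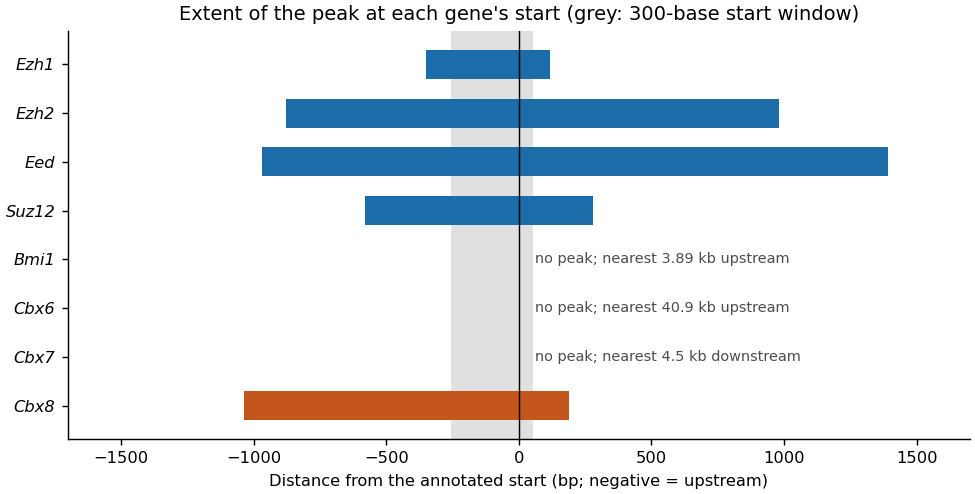
Extent of the region at the annotated start of 8 Polycomb genes, in bp from the start, with PRC2 genes in blue and PRC1 genes in orange and the start window in grey. Bars are the regions, from 468 bp at Ezh1 to 2360 bp at Eed, and the rows of Bmi1, Cbx6 and Cbx7 have no bar but the distance to the nearest region.

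Bmi1, Cbx6 and Cbx7 differed in how far the nearest region lay. At Bmi1, which encodes the PRC1 partner also called PCGF4, it ended 3891 bp upstream of the start. That region of 1438 bp (chromosome 2, 18671690 to 18673127) covered the start of the neighbour Commd3, 4.58 kb away on the same strand. It also overlapped the start window of Gm33355, so it cannot be given to either start alone. No region overlapped the Bmi1 gene itself, and the next ones lay 13.4 and 17.2 kb downstream of the start. At Cbx7 the nearest region, 590 bp wide, lay inside the gene 4499 bp downstream of the listed start (chromosome 15, 79927558 to 79928147). The bounds of Cbx7 reach 38.5 kb beyond that start, and a further region of 764 bp lay in this upstream stretch, 17.6 kb from the start. At Cbx6 the nearest region was 40872 bp upstream, and neither the gene nor 20 kb on either side held any region (0). Among the start windows of protein-coding genes without a region, the nearest one lay at a median distance of 15929 bp (quartiles 4965 and 41570 bp), so that Bmi1 and Cbx7 were nearer than the lower quartile and Cbx6 was close to the upper.

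Counted over the 8 matched members, 5 had a region over the start window, beside 55.0% of the 17492 protein-coding genes with a listed start and 51.9% of the 14731 that, like each of these 8, have 1 listed start. The same 5 were found when a region had to cover the start base itself and when it could lie anywhere within 1000 or 2500 bp of it. By gene bounds, 6 of all 9 members had a region within 1 kb, against the 57.6% given above. Cbx2, another chromodomain gene, was the added one, with a region of 500 bp over its lower-coordinate bound (chromosome 11, 119022775 to 119023274). This Cbx2 region also overlapped the lncRNA gene Gm35829. These shares lie near those of all genes, and 8 or 9 genes are too few to read a difference from them.

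All 8 start windows were rich in CpG, including the 3 without a region. The CpG ratio, the observed number of CpG pairs over that expected from the C and G content, was 1.09 at Suz12, 0.999 at Ezh2, 0.882 at Ezh1, 0.833 at Cbx8 and 0.758 at Eed, where a region was present. It was 0.992 at Cbx7, 0.805 at Cbx6 and 0.708 at Bmi1, where none was, and the 2 ranges overlap. GC content ran from 54.7% at Eed to 71.7% at Cbx6. The median over 21263 start windows of protein-coding genes was a ratio of 0.567 and a GC content of 56.3%. Of the 9600 windows with a ratio of at least 0.6 and at least 50% GC, limits chosen after seeing the data and met by all 8 members, 84.9% had a region, compared with 27.1% of the other 11663. Bmi1, Cbx6 and Cbx7 thus belong to 1454 CpG-rich windows with no region, whose nearest region lay at a median of 11422 bp (quartiles 2433 and 28718 bp). Against these, Bmi1 and Cbx7, at 3891 and 4499 bp, lay between the lower quartile and the median, and Cbx6, at 40872 bp, was farther than the upper quartile.

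**Figure D2:**
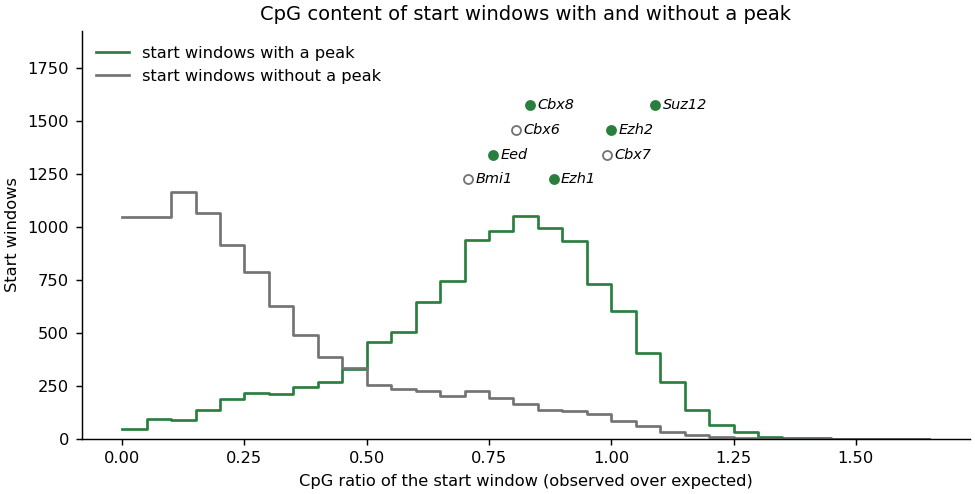
Number of protein-coding start windows by CpG ratio (observed over expected, in steps of 0.05), with and without a region, and the 8 Polycomb genes placed at their own ratio above the curves (filled, with a region; open, without). The open symbols of Bmi1, Cbx6 and Cbx7 lie at 0.708, 0.805 and 0.992, within the span of the filled ones or just below it and where windows with a region are the majority; the height of the symbols has no meaning.

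The motifs were searched by exact letters on both strands, and a match is a description of the letters and not a binding site. The forkhead words GTAAACA and ATAAACA, the kind read by FOXC1 and its relatives, occurred in 1 of the 8 windows, that of Eed, as GTAAACA from base -150 (the start is base 1 and no base is numbered 0), and in 6.73% of all 21263 windows. E2F words (TTTGGCGC, TTTCCCGC or TTCCCGCC), typical of cell cycle genes, were in the Ezh2 window at base 4 and in the Suz12 window at base -219, and in 4.14% of all windows. CCAAT was in 5 windows (Ezh2 with 3 matches, Eed, Suz12, Cbx7 and Cbx8) and in 38.2% of all. The SP/KLF word GGGCGGG was in 4 (Suz12, Bmi1 with 4 matches, Cbx6 and Cbx8) and in 33.9% of all.

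Of the remaining words, the E-box CACGTG was in the windows of Bmi1, Cbx6 and Cbx8 (7.84% of all) and the CREB word TGACGTCA in that of Cbx8 (2.23%). The RUNX word TGTGGT was in that of Ezh2 (15%) and the SOX word ACAATGG in that of Bmi1 (2.92%). None of the 8 windows (0) held the ETS word CCGGAAG, the NRF1 word GCGCATGC, the YY1 word AAGATGGC, the AP-1 word TGANTCA, the LIM homeobox word TAATTA or the TATA box TATAAA, which were in 11.6%, 3.52%, 3.05%, 6.99%, 4.53% and 12.6% of all windows. In the Cbx8 window the E-box and SP/KLF matches abut, and the pair of SP/KLF matches near base -40 of Bmi1 overlap each other. The Ezh1 window matched none of the 14 motifs.

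Beyond the starts, the windows around the members held between 2 and 9 regions each. Eed had 9, Ezh1, Cbx7 and Cbx8 had 8 each, Suz12 and Cbx2 had 7, Bmi1 and Cbx6 had 4 and Ezh2 had 2. The median was 7, beside 5 for all protein-coding genes (quartiles 2 and 8). Per 100 kb of window this made 7.65 at Cbx8, 7.12 at Eed, 6.47 at Cbx2, 5.91 at Ezh1, 5.15 at Cbx7, 4.96 at Suz12, 3.65 at Bmi1, 3.62 at Cbx6 and 1.21 at Ezh2, against a median of 3.79 and quartiles of 1.85 and 6.12 for all genes. The members therefore spread over the range of all genes, from percentile 18.5 at Ezh2 to 85.4 at Cbx8. The counts turned on the extension for some genes. With 20 kb on either side Suz12 kept 1 region and Cbx6 0, and with 100 kb Ezh2 had 15, which moved it to percentile 74.5. Windows overlap where genes are neighbours, so Cbx2 and Cbx8 shared 7 regions and Cbx6 and Cbx7 shared 3.

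**Figure D3:**
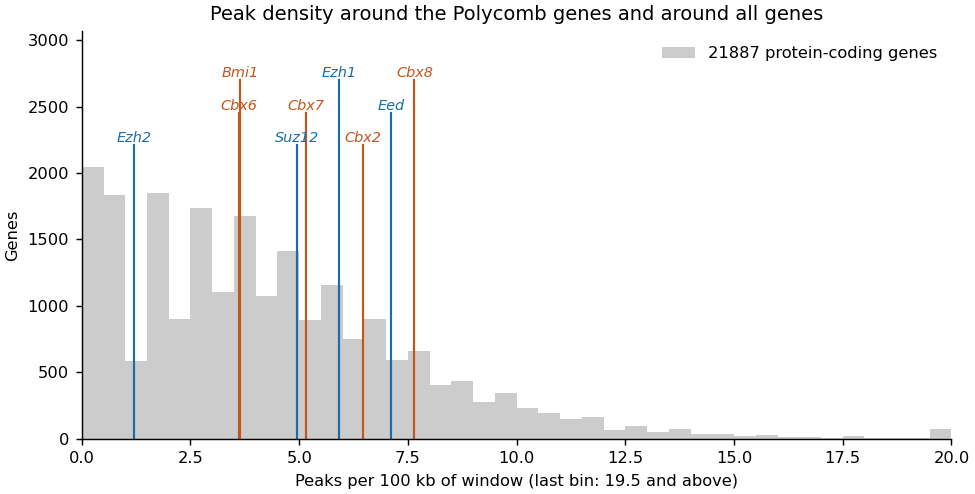
Histogram of the number of regions per 100 kb of window for 21887 protein-coding genes, with vertical lines at the 9 Polycomb genes (blue PRC2, orange PRC1; line heights only separate the names). The lines run from 1.21 at Ezh2 to 7.65 at Cbx8, on both sides of the median of 3.79.

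**Figure D4:**
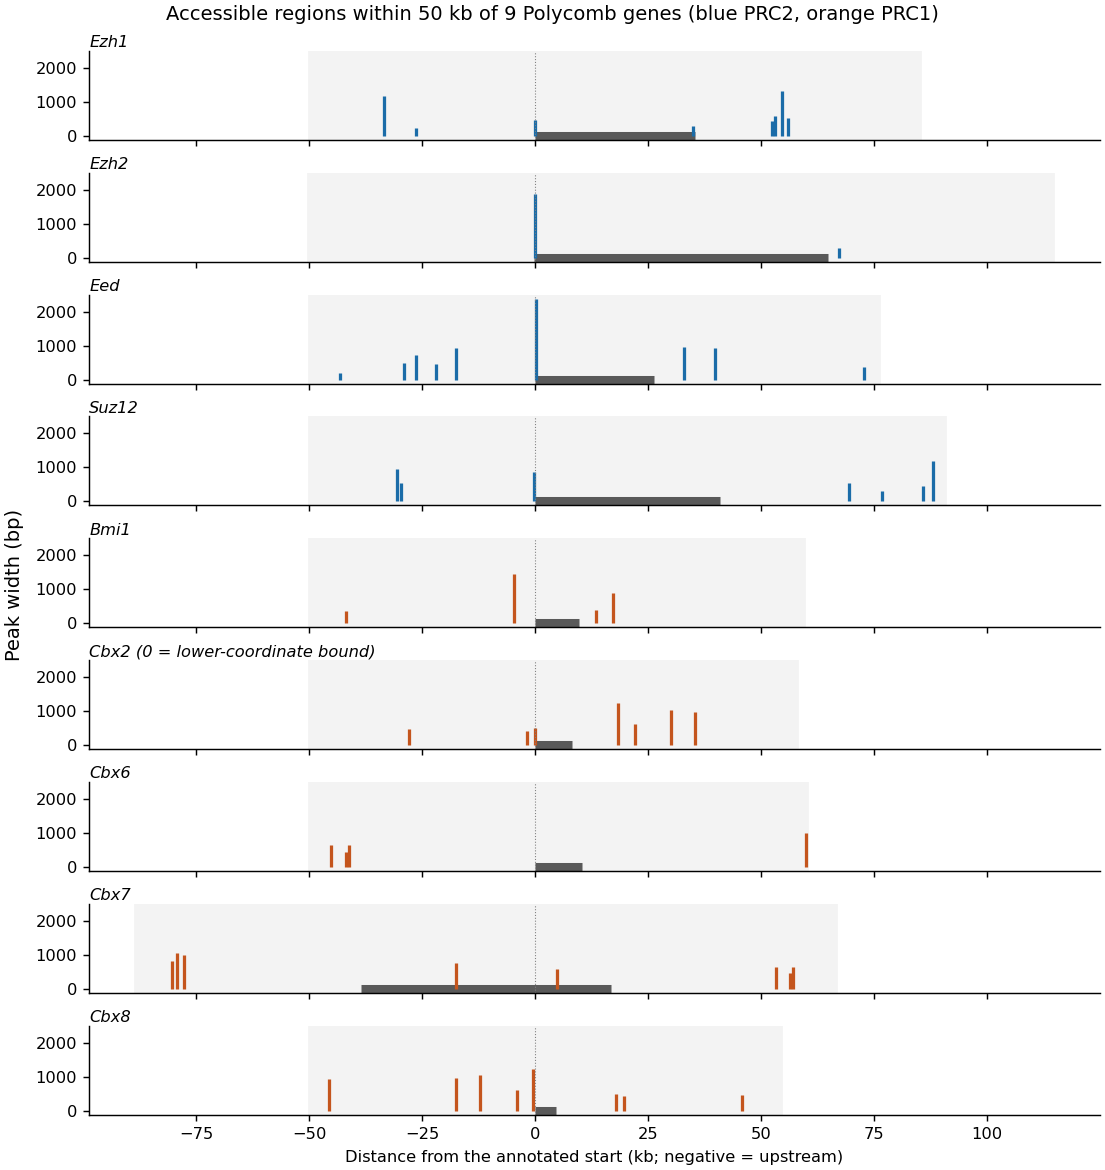
Regions within the window (pale grey) of each Polycomb gene, with the distance of the midpoint from the annotated start in kb on the horizontal axis and the height of each line giving the width of the region in bp. Dark bars are the genes; for Cbx2 the distance is from the lower-coordinate bound. Ezh2 shows a wide region at its start and only 1 other, while Eed shows 5 upstream of its start.

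The arrangement differed between members. At Eed, 5 regions of 200 to 929 bp lay upstream between 17.6 and 43.2 kb from the start, on ground with no protein-coding gene in the window, and 7 of its 9 regions were over 1 kb from every annotated gene bound and start. At Ezh1 none (0) of the 8 was. Those outside the gene lay at neighbours, 4 of them at Plekhh3 and the chemokine receptor gene Ccr10, the widest 1310 bp over the start of Plekhh3. Inside Ezh1 a second region of 299 bp lay 0.288 kb from the lower-coordinate bound. At Ezh2 the only other region, 292 bp wide, lay 2.24 kb beyond the lower-coordinate bound, and the body of this 65.0 kb gene held none apart from that at its start.

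At Suz12, 4 of the 7 regions overlapped Crlf3. A region of 954 bp overlapped Utp6, and one of 528 bp lay beside it outside any annotated gene. That left the start region as the one over Suz12 itself. The Cbx genes on chromosome 11 stand close together, with 5.03 kb between Cbx2 and Cbx8. On the upstream side of Cbx8, 3 regions of 610, 1047 and 961 bp lay with midpoints 4.13, 12.2 and 17.5 kb from the Cbx8 start, all over 1 kb from any annotated bound or start. Between Cbx6 and Cbx7 on chromosome 15, which stand 81.5 kb apart, 3 regions of 650, 452 and 648 bp formed a group between 79875205 and 79879745. On the far side of Cbx7, 3 regions of 997, 1051 and 828 bp lay inside Pdgfb, the gene of a platelet-derived growth factor subunit.

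Taken as distinct regions, the 47 had a median width of 648 bp (quartiles 463 and 957.5 bp, range 200 to 2360 bp), beside 638 bp for the 59982 regions found within 50 kb of any protein-coding gene. Of the 47, 25 (53.2%) lay over 1 kb from every annotated bound and start, against 70.2% of those 59982. The regions of neighbouring windows are not independent of each other. A total of 12 other protein-coding genes had a listed start inside the windows, and 6 of them had a region overlapping the start window: Plekhh3, Wnk4, Hikeshi, Crlf3, Commd3 and Dnal4. This is near the 55.0% of all protein-coding genes with a listed start. The region at Wnk4 ended 106 bp before the start itself. Tubg2, Vps25, Gm46725, Spag6, Enpp7 and Apobec3 had none overlapping the start window, though one lay 123 bp from the Gm46725 start and one 653 bp from that of Vps25. At Spag6 a region of 900 bp covered the lower-coordinate bound while the listed start lay 4317 bp from any region, so a start missing from the table can hide a region of this kind.

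Most other genes of the Polycomb machinery had a region at their start. Of 32 such genes, 27 had a listed start. Among these, 23 had a region overlapping at least 1 of their start windows (22 over the start base itself). The share was 55.0% of all genes counted likewise, and 84.9% of CpG-rich windows counted singly. Not all 27 were CpG-rich, with CpG ratios of 0.208 at Ezhip and 0.362 at Pcgf2, for example. The count with a start region was 13 of 15 for other PRC1 genes, 7 of 9 for other PRC2 genes and 3 of 3 for the genes of the H2A deubiquitinase complex. Examples were the PRC1 ligase genes Ring1 (1100 bp) and Rnf2 (1450 bp), the Bmi1 relative Pcgf3 (2082 bp), the histone-binding Rbbp4 (2097 bp) and the PRC2 cofactor genes Jarid2 (943 bp) and Mtf2 (1568 bp). Scmh1, Bcor, Phf19 and Ezhip had none, with the nearest region 3537, 2295, 8218 and 34463 bp away. By gene bounds, 24 of the 32 had a region within 1 kb, beside 57.6% of all protein-coding genes. The median width of their start regions was 1300 bp, against 1226 bp over the 5 members with one. For a gene with more than 1 listed start, which no matched member has, the widest start region was taken.

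Of the genes of opposing or parallel chromatin systems, 7 of 9 trithorax and H3K27 demethylase genes had a region at a start window. The count was 6 of 7 for HP1 and H3K9 methylation genes, and the share of all genes was 55.0%. Kmt2a, Kmt2d and Setdb1 had none, with the nearest region 23563, 641 and 39101 bp away. By gene bounds the counts were 10 of 14 and 6 of 7, beside 57.6% of all protein-coding genes. Genes known as Polycomb targets in mouse cells had a region overlapping a start window in 3 of 8 cases. The share was 55.0% of all genes and 84.9% of CpG-rich windows counted singly. By gene bounds, 6 of 10 had a region within 1 kb, near the 57.6% of all genes. Those with a start region were the cell cycle inhibitor genes Cdkn2a (769 bp), Cdkn2b (1190 bp) and Cdkn1a (2638 bp). The developmental factor genes Hoxa9, Hoxd13, Pax6, Neurog1 and Olig2 had none at a listed start, with the nearest region 5100, 29523, 833, 37808 and 28577 bp away. Hoxa9 and Pax6 did have a region within 1 kb of a gene bound, as did Hoxc13 and Gata6, which were described by bounds alone. All of the 5 except Hoxa9, at a CpG ratio of 0.28, also had a ratio over 0.6.

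**Figure D5:**
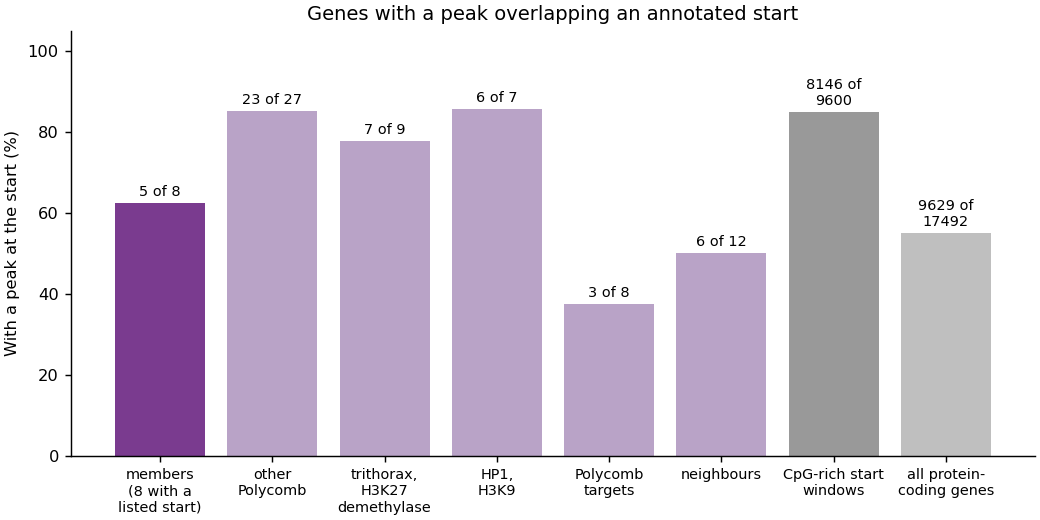
Percentage of genes with a region overlapping a start window, for the 8 matched Polycomb members, for related gene lists and the neighbours of the members, and for CpG-rich start windows and all protein-coding genes (grey). Counts stand above the bars: the members have 5 of 8, other Polycomb genes 23 of 27 and the Polycomb target list 3 of 8; bars have no error since the list of regions has no replicate.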

How the data were processed

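Regions were used as the authors deposited them, as chromosome, start and end with no filter, and starts were changed to 1-based positions. The mm10 build and the tools Bowtie2, MACS2 and bedtools are named per the submitters' processing notes. The sources used here do not state their settings, the read filters, any Tn5 offset or whether regions were called on pooled runs. Reads discarded or kept at repeats would change which regions appear. The 2 runs of a genotype count as 1 library, and the number of unused per-sample columns is 0.

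Gene bounds (21887 protein-coding genes outside the mitochondrion) and start windows came from RefSeq tables of GRCm38.p6, which shares its chromosome coordinates with mm10. Where start windows of opposite strands overlap, 803 of 803 pairs were checked to be reverse complements. Overlap meant at least 1 shared base. Percentiles are mid-ranks. Python 3.11.15, numpy 2.4.6, pandas 2.3.3 and matplotlib 3.10.9 were used, and interval counting was tested on simulated regions. The genes named are the 9 members, the other Polycomb genes without a start region with up to 6 that had one, and the neighbours with a start in a window. Ccr10, Utp6, Pdgfb, F830010H11Rik, Gm33355, Gm35829 and the genes of the target, marker and other chromatin lists were named after their values were seen. A gene of the planned Polycomb list is not reported here. Members and lists were chosen with earlier results of these data known.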

Additional observations from a re-analysis of the deposited data

How the results depend on the processing

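The members with a region over the start numbered 4 to 6 under all 5 other settings (main count 5), and the other Polycomb genes 22 to 24 (main count 23), where the gene-bound setting counts over 9 and 32 genes instead of 8 and 27. The 47 regions became 23 with 20 kb, 81 with 100 kb and 27 with regions of at least the median width, and 46 or 47 with regions wider than 200 bp or midpoints inside. The share of genes with a start region was 58.3% within 1000 bp, 61.2% within 2500 bp, 53.4% for the start base, 51.2% for regions of at least the median width and 57.6% for gene bounds. It was 51.9% for genes with 1 listed start and 84.9% for CpG-rich windows, both added after seeing the data. The median percentile of density over the members, 66.0, was 69.8 with 20 kb, 64.2 with 100 kb, 56.4 by bases covered and 67.1 against genes of the same chromosomes only. The median start width of 1226 bp was the same when regions within 1000 bp were summed. Causes were not tested. Leaving out a run was not run, since the list has no values per run. No paired analysis was possible because the columns carry no sample. Depth is unknown, so weak regions cannot be told from missed ones.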

Other observations

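The window of Ezh2 held 2 regions, but just outside it, from 55.4 to 92.0 kb upstream of the start, 11 regions followed each other on chromosome 6 from 47650462 to 47687034. They covered 88.0% of these 36.6 kb, with a median width of 3480 bp (1042 to 4122 bp), against 587 bp over the whole list. The annotation there names Rn4.5s, a small RNA gene, and provisional genes including Gm40369, Gm40367, Gm40365, Gm36327, Gm40364 and Gm40363. The sources used here do not state how reads from repeated sequence were handled, and its part in these widths was not tested.

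Among the other Polycomb genes, Aebp2, which encodes a PRC2 cofactor, had the widest start region, 6283 bp, and 15 regions in its window (percentile 93.0). The PRC1 genes Phc1 and Phc2, which encode polyhomeotic proteins, had 16 and 17 regions in theirs (percentiles 98.3 and 89.7). Epop, a PRC2 cofactor gene, had 0. These genes were picked after their values were seen.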
